A study of Mus musculus with 22 samples.

Results

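The Dlx1/Dlx2 and Dlx5/Dlx6 gene pairs are described here through every peak, of 10 lists for the histone marks H3K4me3 and H3K27me3, that overlapped by at least 1 bp one of 2 windows of mouse build mm9. The windows were chromosome 2 from 71355000 to 71395000 for Dlx1 and Dlx2 and chromosome 6 from 6800000 to 6840000 for Dlx5 and Dlx6. They held 33 of 110069 peaks, of which 21 were H3K4me3 peaks and 12 were H3K27me3 peaks. Purified cells of the developing neocortex of C57BL/6JOlaHsd mice were profiled by chromatin immunoprecipitation and sequencing in 5 cell types. Neuroepithelial cells (NEC) were from E9.5 (embryonic day 9.5), and neurons (N), basal radial glia (bRG) and apical radial glia of a proliferative (aRG-P) and a neurogenic (aRG-N) kind were from E14.5. Each cell type and mark had 2 samples and 1 peak list called on both combined, so replicate error could not be estimated and cell types are compared without a test. The 2 aRG-N H3K27me3 samples are labelled technical replicates, and read depth is unknown. Cell types are as labelled, without a check against marker genes, since the lists hold positions and no gene table of the same build was used.

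Dlx genes encode homeodomain transcription factors that lie in pairs whose members are transcribed towards each other. In the forebrain they act in the ventral progenitors that give rise to inhibitory interneurons, Dlx1 and Dlx2 ahead of Dlx5 and Dlx6, while the projection neurons of the neocortex come from dorsal progenitors. H3K27me3 is laid down by Polycomb repressive complex 2 and marks silenced developmental genes, often over long domains. H3K4me3 marks active promoters, and its overlap with H3K27me3 is often called bivalent.

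Both marks are known to favour promoters rich in the dinucleotide CG, so the 2 member promoters present in the RefSeq sequence table are shown, each as the 250 bases before the transcription start, 5′ to 3′ on the gene's strand, with every CG in capitals. Both come from build GRCm38.p6, and their places in mm9 were not determined.
Dlx1: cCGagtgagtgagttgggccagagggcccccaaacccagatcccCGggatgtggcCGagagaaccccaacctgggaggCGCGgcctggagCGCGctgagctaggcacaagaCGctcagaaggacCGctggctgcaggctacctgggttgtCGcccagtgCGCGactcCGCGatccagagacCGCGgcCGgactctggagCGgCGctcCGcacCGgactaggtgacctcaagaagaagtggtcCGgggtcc
Dlx2: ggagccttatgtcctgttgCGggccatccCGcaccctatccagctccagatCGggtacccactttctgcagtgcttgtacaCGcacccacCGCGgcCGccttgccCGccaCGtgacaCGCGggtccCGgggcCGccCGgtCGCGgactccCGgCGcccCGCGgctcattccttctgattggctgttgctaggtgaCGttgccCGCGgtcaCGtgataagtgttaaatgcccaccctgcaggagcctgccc
The Dlx1 promoter (plus strand) held 22 CG and the Dlx2 promoter (minus strand) 24, the same count on either strand, where the median of 32851 promoters of this length was 6. As many CG as at Dlx1 were found in 14.8% of all promoters, and as many as at Dlx2 in 12%. Dlx5 and Dlx6 had no entry. The antisense transcript Dlx6os2, which the gene table places between the starts of Dlx6 and Dlx5, had 7 CG in the same stretch, and the 2 entries of the antisense transcript Dlx6os1 had 5 and 3.

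A long H3K27me3 domain lay over both gene pairs in all 5 cell types. Of all H3K27me3 regions, made by joining touching peaks of the 5 lists, 16.4% had a peak in all 5. At Dlx1/Dlx2 the longest peak measured 30.1 kb in NEC (71361171 to 71391224), 24 kb in aRG-P (71360994 to 71385011), 24 kb in aRG-N (71361133 to 71385158), 23.4 kb in bRG (71361575 to 71384982) and 32.2 kb in N (71360431 to 71392647). NEC and N had the wider domains, and the longest peaks of the 3 radial glia lists were within 1 kb of each other. At Dlx5/Dlx6 it measured 42.5 kb in NEC (6791262 to 6833730), 42 kb in aRG-P (6791163 to 6833171), 44.4 kb in aRG-N (6789628 to 6834021), 36.4 kb in bRG (6797190 to 6833580) and 42.6 kb in N (6791088 to 6833733). There the longest listed peak was narrowest in bRG and alike in the other 4. With gaps of up to 3000 bp joined, bRG was the widest, at 45.3 kb against 42 to 44.4 kb. The stretch shared by all 5 domains was 23.4 kb of a union of 32.2 kb at Dlx1/Dlx2 (72.7%) and 36 kb of 44.4 kb at Dlx5/Dlx6 (81.1%).

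**Figure D1:**
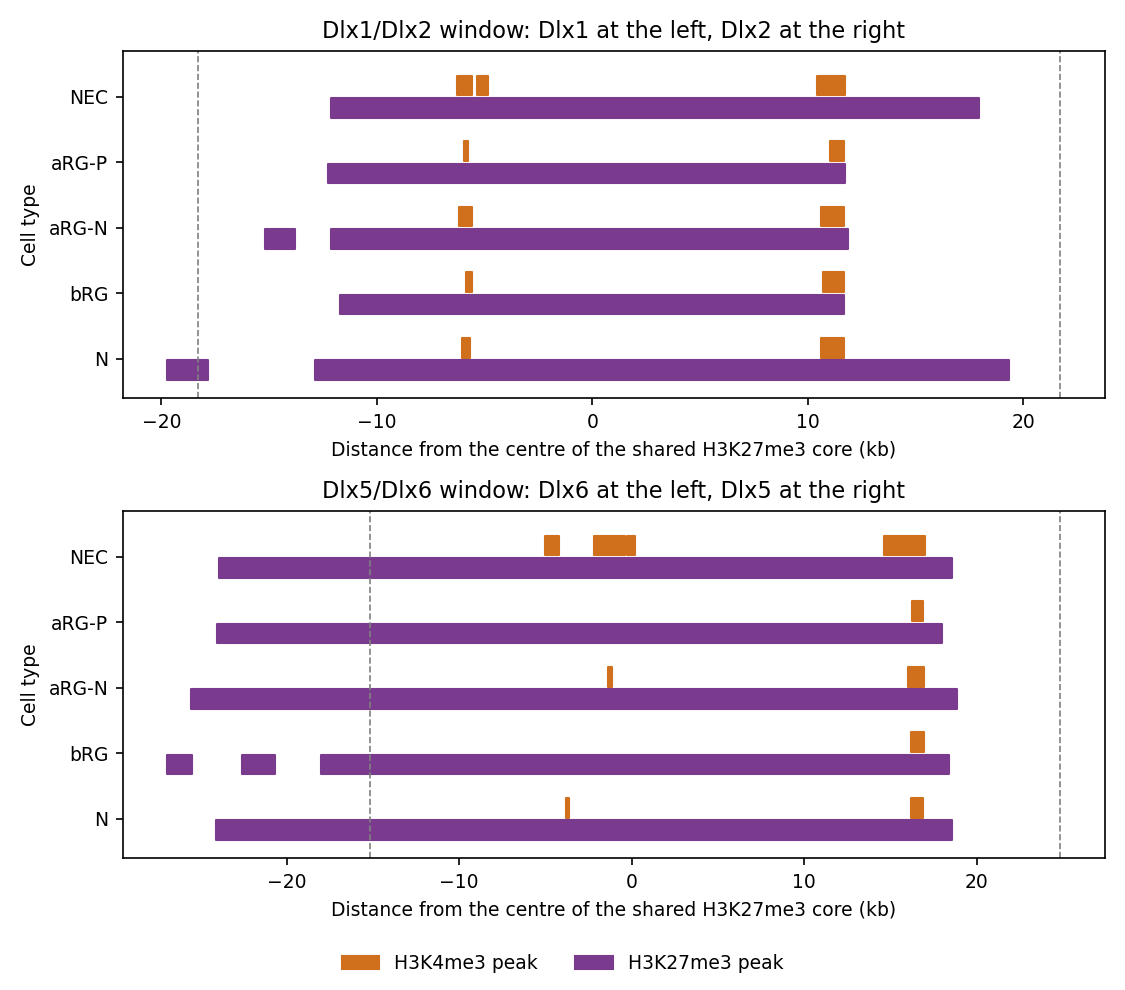
Peaks of both marks in the 2 windows, with the distance in kb from the centre of the stretch of H3K27me3 shared by all 5 domains on the horizontal axis and the cell types on the vertical axis. Orange bars are H3K4me3 peaks, purple bars H3K27me3 peaks and dashed lines the window limits. Every orange bar lies over a purple one, and the Dlx1/Dlx2 domain reaches further right in NEC and N than in the other 3 lists.

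These domains stood among the longest of their lists, which differ in length and are therefore ranked only within themselves. The Dlx5/Dlx6 domain was 15th by width of 9460 H3K27me3 peaks (NEC), 12th of 5075 (aRG-P), 20th of 6830 (aRG-N), 16th of 3476 (bRG) and 18th of 5734 (N). The Dlx1/Dlx2 domain ranked 44th, 75th, 123rd, 61st and 53rd in the same order. Between 0.148% and 0.432% of a list's peaks were longer than the first, and between 0.455% and 1.79% were longer than the second. The median H3K27me3 peak was 1.62 to 2.08 kb wide. Peaks of at least 20 kb, the class that holds all 10 Dlx domains, made up 1.28% of the NEC list and 2.23%, 2.66%, 2.45% and 2.7% of the aRG-P, aRG-N, bRG and N lists. By the authors' score in the first value column, the Dlx1/Dlx2 domain was 18th in aRG-N and 38th in aRG-P, and 159th in NEC, 103rd in bRG and 194th in N. The Dlx5/Dlx6 domain was 199th, 122nd, 89th, 134th and 168th in NEC, aRG-P, aRG-N, bRG and N. Width placed Dlx5/Dlx6 ahead of Dlx1/Dlx2 in every list, and score placed it ahead in N alone.

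**Figure D2:**
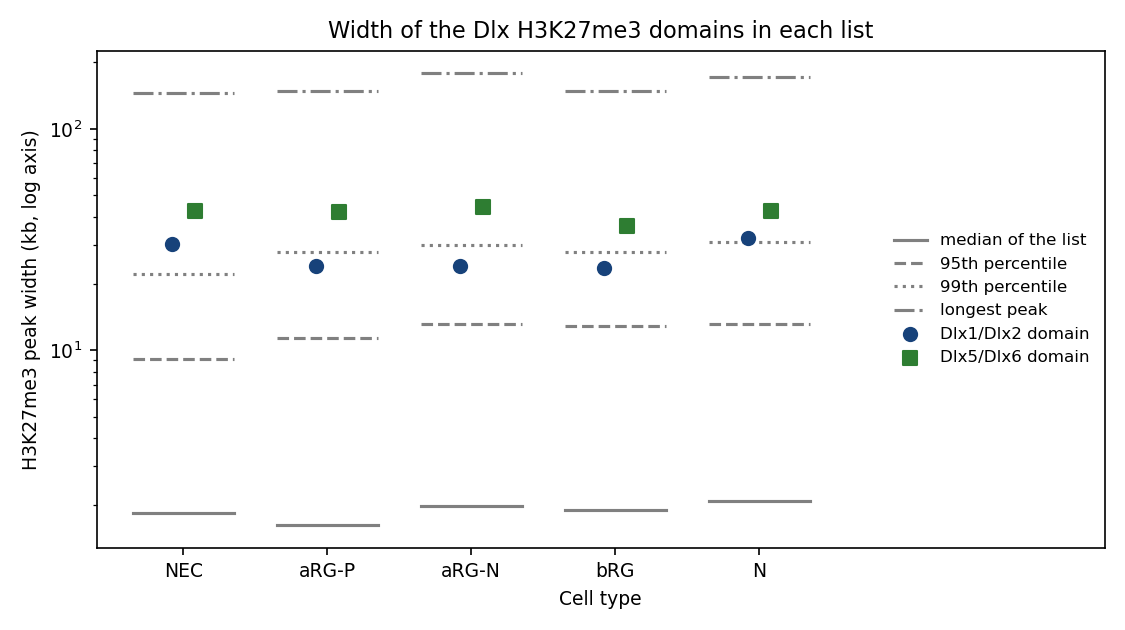
Width in kb (log axis) of the H3K27me3 domain at each gene pair, by cell type. Lines give the median, the 95th and 99th percentile and the longest peak of the list. All 10 domains lie above the 95th percentile, and the 5 at Dlx5/Dlx6 and those of NEC and N at Dlx1/Dlx2 also lie above the 99th. Widths are those of the listed peaks, with no gaps joined.

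Within the 40 kb windows, H3K27me3 covered 75.1% of the Dlx1/Dlx2 window for NEC, 60% for aRG-P, 63.6% for aRG-N, 58.5% for bRG and 81.6% for N. Coverage of the Dlx5/Dlx6 window was between 82.9% in aRG-P and 85.1% in aRG-N, and its domain ran on beyond the lower window limit by 2.81 kb in bRG and by 8.74 to 10.4 kb in the other lists. The part of that window below its midpoint was covered throughout in every list. For comparison, consecutive 40 kb tiles were laid along each chromosome, and 14769 held a peak of either mark, the tiles over the Dlx genes included. Of these, 0.447% (66 tiles) were at least 50% covered by H3K27me3 in all 5 lists, as both windows were. As much H3K27me3 as in the Dlx windows was found in 0.284 to 0.792% of tiles for Dlx1/Dlx2 and in 0.149 to 0.352% for Dlx5/Dlx6, depending on the list. The windows were set around the genes, while tiles cut other domains at fixed places. Tile shares can therefore understate how common such cover is.

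By the longest listed peak, the domains at each gene pair differed mostly at 1 edge. At Dlx1/Dlx2 the lower edges lay within 1.14 kb of each other, while the upper edge was between 71384982 and 71385158 in bRG, aRG-P and aRG-N and lay at 71391224 in NEC and 71392647 in N. In the 3 radial glia lists the domain ended 9 bp (bRG), 58 bp (aRG-P) and 184 bp (aRG-N) past the end of the H3K4me3 peak on the Dlx2 side. In NEC and N it went on for 6.23 and 7.67 kb past that peak. Among H3K27me3 peaks of at least 20 kb, a start within 200 bp of an H3K4me3 peak start, or an end within 200 bp of an H3K4me3 peak end, was found in 1 of 113 in aRG-P (0.885%), 2 of 182 in aRG-N (1.1%) and 1 of 85 in bRG (1.18%), the Dlx1/Dlx2 domain included, and in 0.826% in NEC and 1.29% in N. This comparison was chosen after the edges had been seen. Between this domain and the next listed peak, 214 to 1260 kb away, the peak numbers of aRG-P, aRG-N and bRG each skip 1, so each of these lists lacks a call whose place in that stretch is not known. NEC also skips 1 number there and N skips none. The N H3K27me3 list was called on extended reads, per its peak names, and the part of this step in the wider N domain was not tested. The NEC peak names mention no such extension, but names may leave a step out.

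At Dlx5/Dlx6 the upper edges lay within 0.85 kb of each other and the lower ones spread over 7.56 kb. The highest start was that of bRG, which had 2 short H3K27me3 peaks below its domain. That from 6792588 to 6794526 lay inside the domains of the other 4 lists, and that from 6788284 to 6789727 lay below the domains of NEC, aRG-P and N and met the start of the aRG-N domain. Joined across gaps of up to 3000 bp, the bRG domain measured 45.3 kb, and the domains of all lists started between 6788284 and 6791262. Short H3K27me3 peaks also lay below the Dlx1/Dlx2 domain, of 1.42 kb in aRG-N (71358080 to 71359496) and of 1.87 kb in N (71353562 to 71355434), the latter across the window limit. Joined in the same way, the aRG-N domain at Dlx1/Dlx2 started at 71358080 and measured 27.1 kb, so its lower edge also differed. The other 4 domains there were unchanged.

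H3K4me3 was present at both gene pairs in all 5 cell types, as it was for 67.9% of all H3K4me3 regions, and all 21 of its peaks lay wholly inside H3K27me3 of the same cell type. Over whole lists, the share of H3K4me3 peaks wholly inside H3K27me3 was 17.4% for NEC, 6.41% for aRG-P, 9.88% for aRG-N, 5.22% for bRG and 9.06% for N, and the share with any overlap was 25.9%, 8.9%, 14.4%, 8.41% and 12.7%. Overlapping peaks of separate lists, each from many cells, do not show both marks in the same cell. Of H3K27me3 peaks of at least 20 kb, 75.2% overlapped an H3K4me3 peak for NEC, 22.1% for aRG-P, 37.9% for aRG-N, 21.2% for bRG and 18.7% for N. The Dlx1/Dlx2 domain held at least 2 H3K4me3 peaks in every list, as did 39.7% of such domains for NEC, 8.85% for aRG-P, 11% for aRG-N, 4.71% for bRG and 5.81% for N. With a −log10 q of at least 5, or in lists of equal length, that window kept only 1 H3K4me3 peak in aRG-P and 1 in bRG. The shares were not recomputed at these settings. Of the 66 tiles mostly covered by H3K27me3 in all 5 lists, 12 (18.2%) also held H3K4me3 in all 5, which is 0.0813% of all tiles, while 64.5% of all tiles held H3K4me3 in all 5.

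Each window was split at its midpoint, and the 2 sides are named by the gene that comes first or second in the RefSeq gene order (Dlx1 then Dlx2, Dlx6 then Dlx5). The split was chosen after the peaks had been seen, and peaks were not assigned to transcripts. Fold enrichment below is the authors' ratio of a peak to background, and it is read within a list only.

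On the Dlx2 side a single H3K4me3 peak was found in every list, the widest in NEC (71383695 to 71384997, 1303 bp). Its fold enrichment was 12.8 for NEC, 10.7 for aRG-P, 8.88 for aRG-N, 6.22 for bRG and 6.34 for N. It exceeded the median of the whole list in aRG-P (9) and lay below it in the other 4. On the Dlx1 side a weaker peak was found in every list, with summits within 158 bp of each other (71367387 to 71367545). Fold enrichment there was 7.88 for NEC, 4.28 for aRG-P, 6.03 for aRG-N, 3.90 for bRG and 4.97 for N, below that of the Dlx2 side in 5 of 5 lists. The peak was 182 bp wide in aRG-P and 300 bp in bRG, where its −log10 q was 3.36 and 2.81, against 623 bp in aRG-N and 690 bp in NEC. With a −log10 q of at least 5 the Dlx1 side kept a peak in 3 of 5 lists and lost it in aRG-P and bRG. NEC had a further peak of 506 bp on this side (71367943 to 71368448).

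On the Dlx5 side a peak was again found in all 5 lists, with summits within 314 bp. It measured 2377 bp in NEC (6829777 to 6832153), 644 bp in aRG-P, 945 bp in aRG-N, 731 bp in bRG and 728 bp in N. Fold enrichment was 20.2 for NEC, 7.71 for aRG-P, 6.49 for aRG-N, 5.17 for bRG and 4.28 for N. The NEC peak was above the median of its list (18.7). In the other lists the peak was below the median, and in N 95.3% of all H3K4me3 peaks had a higher value. The Dlx6 side, by contrast, was unevenly marked. NEC had 3 peaks there, 6810134 to 6810982 (fold enrichment 7.88), 6813001 to 6814805 (10.8) and 6814885 to 6815355 (6.90). aRG-N had 1 short peak (6813792 to 6814057, 4.44) inside the widest NEC one, and N had 1 of 206 bp (6811353 to 6811558, 4.42) that overlapped no peak of another list. No peak was listed in aRG-P or bRG. With a −log10 q of at least 5, NEC alone had a peak on the Dlx6 side.

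**Figure D3:**
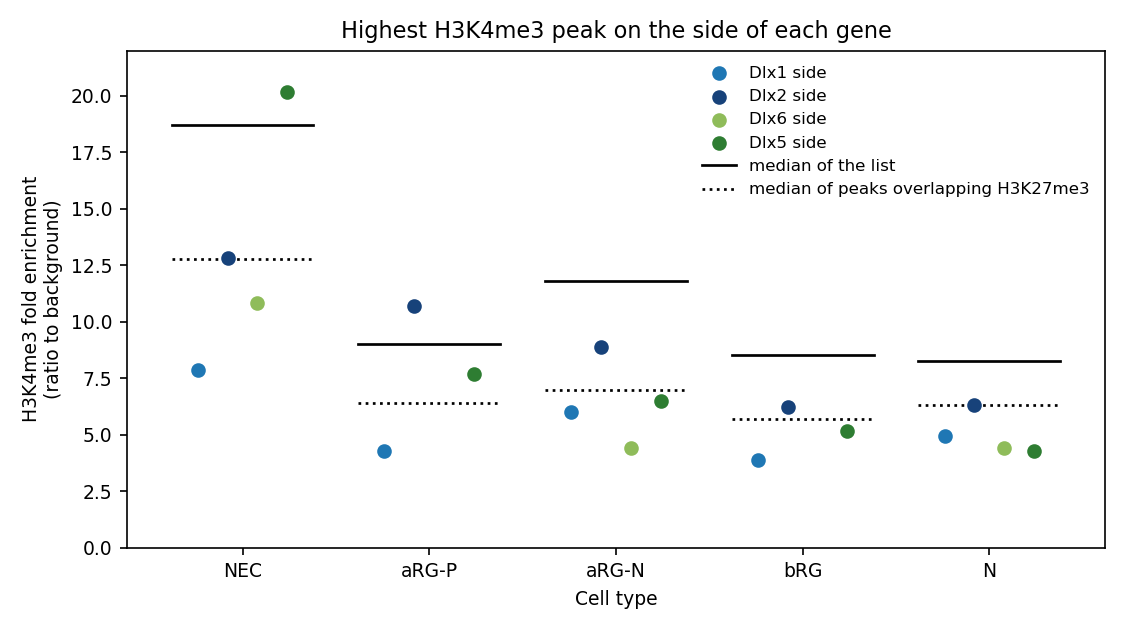
Fold enrichment (ratio to background) of the highest H3K4me3 peak on the side of each gene, by cell type. Solid lines give the median of the list and dotted lines the median of its peaks that overlap H3K27me3. The Dlx1 points lie below the Dlx2 points in all 5 lists, no Dlx6 point exists in aRG-P and bRG, and 2 points lie above a solid line.

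Most of these peaks were weak for their whole lists. Against the median of H3K4me3 peaks wholly inside H3K27me3 the sides differed, with Dlx2 above it and Dlx1 below it in every list. Many of the 21 are the same site listed in several cell types, so they are not independent of each other. Of the 21, 19 had a fold enrichment below the median of their list. Below the median of the H3K4me3 peaks of their list that overlapped H3K27me3 were 14 (12.8 for NEC, 6.43 for aRG-P, 6.98 for aRG-N, 5.7 for bRG and 6.34 for N). These were 6 of 11 at Dlx1/Dlx2 and 8 of 10 at Dlx5/Dlx6. Against the peaks of their list that lay wholly inside H3K27me3, as all 21 did, 12 were below the median (10.3 for NEC, 6 for aRG-P, 6.34 for aRG-N, 5.39 for bRG and 6.07 for N). The 2 above the list median were the Dlx5 peak of NEC and the Dlx2 peak of aRG-P. Widths ran from 182 to 2377 bp with a median of 690 bp.

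NEC carried the longest H3K4me3 at both pairs, and by a wider margin at Dlx5/Dlx6. H3K4me3 peaks in the Dlx1/Dlx2 window covered 2499 bp in NEC, 808 bp in aRG-P, 1713 bp in aRG-N, 1286 bp in bRG and 1475 bp in N. In the Dlx5/Dlx6 window they covered 5502 bp in NEC, 644 bp in aRG-P, 1211 bp in aRG-N, 731 bp in bRG and 934 bp in N. The NEC length was 1.46 to 3.09 times that of the E14.5 lists in the first window and 4.54 to 8.54 times in the second, where the whole NEC list was 1.3 to 1.72 times as long (20.3 Mb against 11.8 to 15.6 Mb). Of 9527 tiles with H3K4me3 in all 5 lists, 17.9% had a ratio of NEC to the highest E14.5 list of at least 1.46, and 0.084% (8 tiles) had one of at least 4.54. In the 1242 tiles with both marks in all 5 lists these shares were 38.3% and 0.483%, and in the 12 tiles mostly covered by H3K27me3 they were 58.3% (7 tiles) and 16.7% (2 tiles). The Dlx1/Dlx2 ratio was thus a common one among tiles with both marks. This comparison was also chosen after the values had been seen. The tile over each gene pair is among the 12 and has the ratio that set its threshold, so these shares are not independent of the Dlx windows. Tiles without H3K4me3 in any 1 of the lists were left out, those with H3K4me3 in NEC alone included. The shares can therefore understate how common such a NEC excess is. The NEC list had the highest median fold enrichment of the 5, and the part of that difference in these lengths was not tested. The NEC peak numbers skip 1 between the Dlx1 and Dlx2 peaks and 2 between the Dlx6 and Dlx5 peaks, so NEC had further calls inside both domains that the list lacks. No number was skipped between the H3K4me3 peaks of the other cell types in either window.

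The H3K27me3 regions most like the domains in length over the 5 cell types were found by the mean absolute difference of log2(covered bp + 1) over 5 lists. Each region joins touching peaks of the 5 lists. That at Dlx5/Dlx6 took in the short bRG peaks below the domain, so its cover in bRG was 39.8 kb. For Dlx5/Dlx6 the nearest was on chromosome 5 from 120099360 to 120144012 (difference 0.025 on the log2 scale), covered over 42.3 kb in NEC, 40.6 kb in aRG-P, 43.2 kb in aRG-N, 39.6 kb in bRG and 42 kb in N. It held 3 H3K4me3 peaks in NEC and none in the E14.5 lists. The next, on chromosome 1 from 74809633 to 74858732 (0.082), held 1 H3K4me3 peak in each list except bRG, which had none. Another on chromosome 1, from 19192333 to 19236452 (0.089), held 4 in NEC, as many as the Dlx5/Dlx6 domain, and none in the E14.5 lists. For Dlx1/Dlx2 the nearest was on chromosome 5 from 42127392 to 42161294 (0.101), where N again had the longest cover (33.9 kb) and H3K4me3 was found in NEC alone. A region on chromosome 10 from 50608728 to 50634344 (0.128) held 1 H3K4me3 peak in each list, and one on chromosome 12 from 58632570 to 58657585 (0.140) held 1 in NEC, aRG-P and aRG-N. None of these 6 regions held as many H3K4me3 peaks as the Dlx domain it resembled in all 5 lists, though some did in single lists. These counts are of peaks as listed. The regions were matched on H3K27me3 alone, and the genes in them were not counted.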

How the data were processed

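H3K4me3 and H3K27me3 were mapped in 20 immunoprecipitated samples (10 groups of 2), and 2 Input samples were not analysed here. Per the submitters' processing notes, Bowtie 1.0.0, MACS2 and bedtools were used with build mm9. Each deposited list was called on combined samples, per its peak names, so no test was possible. Track names in the deposited headers limit the lists to transcripts, so unlisted calls were read from gaps in the peak numbers. The aRG-P H3K27me3 peak names say that a set was excluded. The authors' peak caller gave H3K4me3 peaks a fold enrichment (a ratio to background), a −log10 p and a −log10 q. The meaning of the 3 deposited H3K27me3 value columns could not be settled, and they are called a score.

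Overlaps, widths and ranks were computed with Python 3.11.15 and drawn with matplotlib 3.10.9. Positions are 1-based. RefSeq tables (GRCm38.p6) gave gene order and promoter sequences only. All peaks in the windows are described, and the 3 regions most like each domain were named by position. Members and lists were chosen with earlier results of these data known. Overlap and coverage were checked in 300 windows per mark against a direct count, with no difference. Other settings tried were a −log10 q from 5 upwards, an overlap of at least 50%, windows widened by 20 kb, gaps of up to 3000 bp joined, autosomes only, and lists of equal length, which kept the highest −log10 p or first score.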

Additional observations from a re-analysis of the deposited data

How the results depend on the processing

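No paired analysis was possible because each list combines both samples of its group, and for the same reason no replicate could be left out. H3K27me3 and H3K4me3 were found at both gene pairs in 5 of 5 lists under every alternative run, and all 10 H3K27me3 domains stayed among the longest 5% of their lists. The ranks by width moved when gaps of up to 3000 bp were joined. At Dlx1/Dlx2 they became 109th of 7296 (NEC), 103rd of 4426 (aRG-P), 129th of 5763 (aRG-N), 75th of 3116 (bRG) and 69th of 5043 (N). At Dlx5/Dlx6 they became 45th, 19th, 38th, 12th and 31st in the same order. H3K4me3 peaks overlapping H3K27me3 numbered 11 at Dlx1/Dlx2 and 10 at Dlx5/Dlx6, and between 8 and 11 and between 8 and 10 under the alternatives. The split of the windows into 2 sides was added after seeing the data. A peak was listed on the Dlx1 side in 5 lists, and in 3 with a −log10 q of at least 5 and in 3 in lists of equal length. On the Dlx6 side these numbers were 3, then 1 with a −log10 q of at least 5 and 2 at equal length. The Dlx2 and Dlx5 sides had a peak in 5 lists under both. The count of lists with a peak on the Dlx1 and Dlx6 sides thus depended on the threshold. Read depth is unknown, and a missing peak does not show that the mark is absent.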
